A study of Arabidopsis thaliana with 4 samples.

Results

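The 7 genes described here are *METTL4* and 6 genes that encode writers of RNA *N*6-methyladenosine (m6A) or their partners in *Arabidopsis thaliana*. They were chosen by their AGI identifiers and not by a cut-off on their values, but with earlier results of these data known. Of 32833 genes listed in the count data, 21673 passed the filter on low counts, all 7 among them. RNA-seq was made from 14-day-old seedlings of *mettl4-1* (2 libraries) and of the wild type Col-0 (2 libraries). They were grown on MS medium in long days (8 h dark, 16 h light), at 22 °C by the sample records. The study's methods give a slightly lower temperature for plants grown for RNA. The *mettl4-1* line carries a T-DNA in the first exon of *METTL4*. The sample labels name this allele for both mutant libraries, but the deposited counts of replicate 2 carry the allele name *mettl4-2*, and whether both are the same line could not be settled. An effect of *METTL4* and any other change that a mutant line carries cannot be told apart here. The comparison asks whether the RNA of other methyltransferase genes differs when *METTL4* is disrupted.

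m6A is the most common internal modification of mRNA. In plants it is written by a nuclear complex in which MTA is the catalytic subunit and MTB its paired subunit, together with FIP37, VIR and the ubiquitin ligase HAKAI, and loss of MTA, MTB, FIP37 or VIR is lethal to the embryo or severely impairs development. FIONA1 is a separate enzyme that methylates U6 snRNA and a set of mRNAs, and METTL4 modifies U2 snRNA at an adenosine that is already methylated on its ribose. METTL4, MTA and MTB belong to the same MT-A70 family.

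Positions, exons and names come from RefSeq on TAIR10.1, since the count data carry gene identifiers and no coordinates. *METTL4* (AT1G19340) lies on chromosome 1 at chr1:6684467-6687116, plus strand, with 8 exons. *MTA* (AT4G10760, chr4:6619817-6623381) and *MTB* (AT4G09980, chr4:6247735-6252314) lie on the minus strand of chromosome 4. *FIP37* (AT3G54170, chr3:20056664-20059583, plus strand), *VIR* (AT3G05680, chr3:1660523-1672608, minus strand), *HAKAI* (AT5G01160, chr5:53856-56052, plus strand) and *FIONA1* (AT2G21070, chr2:9040852-9043651, plus strand) complete the set.

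The stretch of coding sequence around the catalytic motif is shown for the 3 MT-A70 genes, which share DPPW, and for FIONA1, which has NPPF instead. FIONA1 was not aligned with the MT-A70 proteins. The sequences are from the RefSeq TAIR10.1 genome, 5′ to 3′ on the coding strand, and capitals mark the codons of the DPPW motif, or of the NPPF motif in FIONA1.
METTL4: atagttattGATCCGCCTTGGgaaaatgca
MTA: gttatggcgGATCCACCATGGgacattcac
MTB: attcttgttGACCCACCATGGgaggaatat
FIONA1: tgtatgtccAATCCTCCATTTtttgagacc
The capitals span chr1:6685845-6685856 for METTL4, chr4:6620790-6620801 for MTA, chr4:6250090-6250101 for MTB and chr2:9041827-9041838 for FIONA1. Each motif occurred once in its protein. In METTL4 the motif begins at residue 233 of 414 and is encoded in exon 4, downstream of the exon that holds the insertion. Between the proteins translated from these gene models, METTL4 and MTA were identical at 34.3% of 178 aligned columns, METTL4 and MTB at 28.9% of 187, and MTA and MTB at 32.9% of 456. At the nucleotide level *METTL4* exons had no megablast match elsewhere in the genome.

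Total counts lay between 50862075 and 66003824 per library, and a floor of 3 counts equals 0.0451 to 0.0593 CPM (counts scaled to a common library size of 1e6, with TMM normalization). Organelle genes took 2.68% and 1.03% of the counts in the *mettl4-1* libraries, against 0.693% and 0.713% in Col-0. The *mettl4-1* libraries also differed from each other beyond sampling noise at 1471 of 21491 nuclear genes, against 159 of 21524 for the Col-0 pair. The labels do not say whether replicates came from separate cultures, so p-values measure only the spread between these libraries, and with 2 libraries against 2 an exact two-sided permutation test of a single gene cannot go below p = 0.333. Tests were therefore taken from the edgeR quasi-likelihood fit over all genes.

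*METTL4* itself, the disrupted gene, was counted 35 and 46 times in the *mettl4-1* libraries, against 355 and 413 times in Col-0. These counts equal 0.692 and 0.894 CPM in *mettl4-1*, against 6.46 and 6.20 CPM in Col-0. Both mutant libraries lay far below both wild-type libraries, as the genotype labels state. The log2 fold change was -2.99 (SE 0.14, 95% interval -3.31 to -2.67), a mean level of 12.5% of that in Col-0, with an adjusted p of 8.6e-07 in edgeR. Of all genes tested, 99.8% changed by less than *METTL4* in absolute log2 fold change.

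The remaining *METTL4* reads were above the floor in both mutant libraries. Relative to the Col-0 mean they amounted to 10.9% in *mettl4-1* replicate 1 (exact 95% Poisson interval 7.62 to 15.2%) and 14.1% in replicate 2 (10.3 to 18.8%). The intervals cover counting error only and overlap, and the 2 libraries did not differ beyond sampling noise (exact binomial p = 0.223). Exon 1 makes up 43.7% of the exon length of *METTL4*, and the exons downstream of it 56.3%. Counts per gene do not divide the reads between these parts, so the data do not show which stretch of the transcript the remaining reads come from.

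None of the other 6 genes passed an adjusted p of 0.05, and 1 of the 7 genes, *METTL4*, did. Among all genes tested, 614 (2.83%) passed in either direction, 406 (1.87%) lower and 208 (0.96%) higher in *mettl4-1*. With at least a 1.5-fold change and an unadjusted p under 0.05, the thresholds of the study's methods, *METTL4* was again the one gene called of the 7, against 351 genes (1.62%) of all tested. The count over all genes at the adjusted threshold rested on single libraries, at 342 without Col-0 replicate 1, 377 without Col-0 replicate 2, 1055 without *mettl4-1* replicate 1 and 1806 without *mettl4-1* replicate 2, and *METTL4* was the one gene of the 7 called in each of these fits. For the other 6, edgeR, DESeq2 without independent filtering and limma-voom each gave 0 genes at an adjusted p under 0.05 and 0 at an unadjusted p under 0.05.

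**Figure D1:**
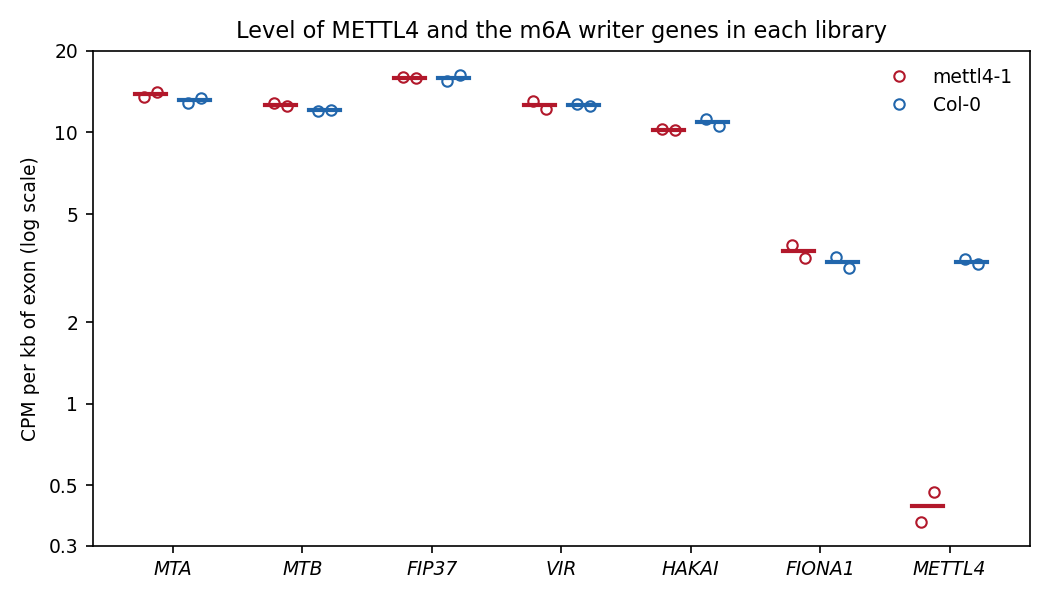
Level of each gene as CPM per kilobase of exon (y axis, log scale) in *mettl4-1* (red) and Col-0 (blue). Circles are single libraries and bars the mean of 2. *METTL4* averages 0.419 in *mettl4-1* and 3.34 in Col-0, while the other 6 genes have log2 fold changes between -0.09 and 0.14.

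*MTA*, the catalytic subunit of the mRNA m6A complex, had 30.5 and 31.8 CPM in *mettl4-1*, against 28.9 and 30.3 CPM in Col-0. The ranges did not overlap, but the gap between the lower mutant library and the higher wild-type library was 0.01 on the log2 scale, smaller than the difference of 0.07 between the Col-0 replicates. The log2 fold change was 0.07 (SE 0.05, 95% interval -0.03 to 0.17, edgeR adjusted p = 0.50). *MTB*, the homologue of METTL14, had 44.0 and 42.8 CPM in *mettl4-1*, against 41.1 and 41.6 CPM in Col-0. Both mutant libraries were above both wild-type ones, by 0.04 to 0.10 on the log2 scale, and the replicates within a genotype differed by 0.04 or less. Its log2 fold change was 0.07 (SE 0.03, 95% interval -0.01 to 0.14) with an edgeR adjusted p of 0.375, so it did not pass the test.

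Both genes overlap neighbours whose reads could be confused with theirs, since the libraries were strand-specific but the strand setting of the counting is not given in the sources used here. *MTA* shares 123 bp, 5.45% of its exon length, with AT4G10750 on the opposite strand, and 28 bp with AT4G05815 on its own strand. AT4G10750 had 1363 and 1410 counts in *mettl4-1*, against 1521 and 1941 in Col-0, a log2 fold change of -0.06. AT4G05815 had 3 counts or fewer in every library. *MTB* shares 58 bp, 1.69% of its exon length, with AT4G09970 on the opposite strand, which had 494 and 533 counts in *mettl4-1*, against 669 and 760 in Col-0 (log2 fold change -0.23, edgeR adjusted p = 0.113). The part of these overlaps in the values of *MTA* and *MTB* was not tested. *MTA* exons also had 2 short megablast matches elsewhere in the genome, the longest of 64 bp at 90.6% identity, and the other 6 genes had none. Whether these matches lie in other genes was not examined.

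The scaffold subunits showed the smallest differences. *FIP37*, the homologue of WTAP, had 21.8 and 21.6 CPM in *mettl4-1*, against 21.04 and 22.2 CPM in Col-0. Both mutant values lay between the wild-type values, and the log2 fold change was 0.00 (95% interval -0.10 to 0.11, edgeR adjusted p = 0.979). *VIR*, the large scaffold protein related to VIRMA, had 92.2 and 85.7 CPM in *mettl4-1*, against 89.98 and 87.8 CPM in Col-0. Here the wild-type values lay between the mutant ones, and the log2 fold change was again 0.00 (95% interval -0.08 to 0.08, edgeR adjusted p = 0.993). For the *mettl4-1* replicates at *VIR* the exact binomial p was 0.0149, the lowest such p among the 7 genes in either genotype. It was not adjusted for the number of such tests, so it does not show a difference beyond counting noise.

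*HAKAI*, the RING-type ubiquitin ligase of the complex, was the one gene of the other 6 with a lower mean in *mettl4-1*. It had 18.9 and 18.7 CPM in *mettl4-1*, against 20.5 and 19.4 CPM in Col-0. The ranges did not overlap, with ratios between the genotypes of -0.14 to -0.04 on the log2 scale against a difference of -0.08 between the Col-0 replicates. The log2 fold change was -0.09 (SE 0.05, 95% interval -0.20 to 0.02, edgeR adjusted p = 0.457). Of the 6 genes, 3 (*MTA*, *MTB* and *HAKAI*) had ranges that did not overlap between the genotypes, and over all genes tested 9922 (45.8%) did not overlap.

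*FIONA1*, which encodes the U6 snRNA methyltransferase, showed the widest interval of the 6. It had 7.93 and 7.09 CPM in *mettl4-1*, against 7.13 and 6.53 CPM in Col-0, so that the lower mutant library fell just under the higher wild-type library. The log2 fold change was 0.14 (SE 0.09, 95% interval -0.06 to 0.33, edgeR adjusted p = 0.509), and it rested on 365 to 435 counts per library.

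**Figure D2:**
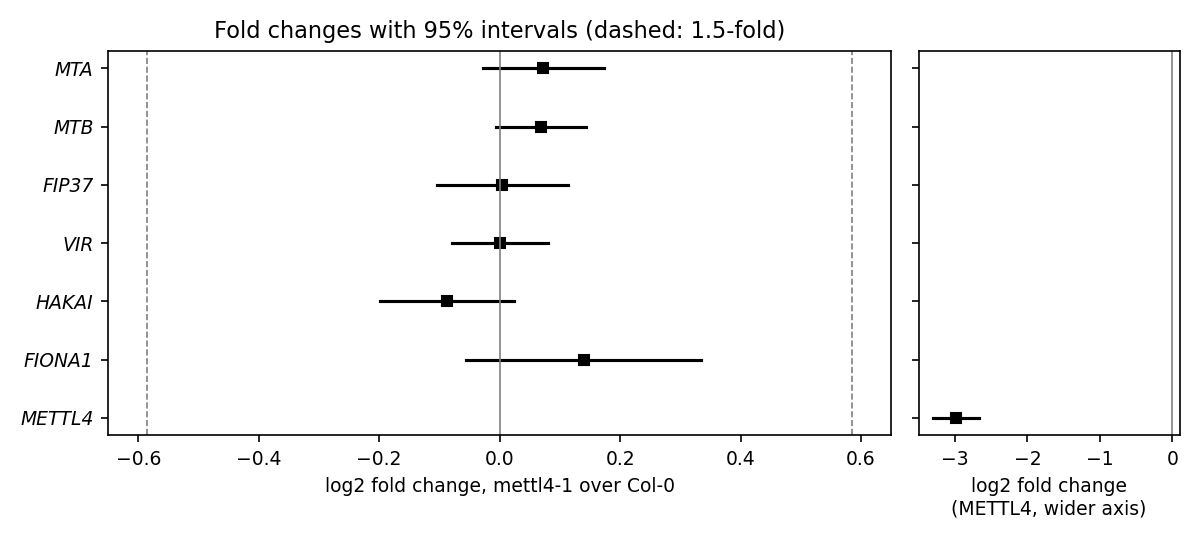
Log2 fold change of *mettl4-1* over Col-0 (x axis) for each gene, with squares for the estimate and lines for the 95% interval from edgeR. Dashed lines mark 1.5-fold in either direction, and *METTL4* has its own wider axis. The 6 other genes have intervals that include 0 and end inside the dashed lines, while that of *METTL4* runs from -3.31 to -2.67.

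The intervals give the size of change that the edgeR fit leaves possible. Standard errors from limma-voom were close to those of edgeR, but those from DESeq2 were larger for all 6 genes. For *FIONA1* the standard error was 0.142 in DESeq2, against 0.088 in edgeR, and for *HAKAI* 0.087 against 0.050. All 6 other genes had intervals inside a 1.5-fold change in either direction, and apart from *FIONA1* their bounds lay between -0.20 and 0.17 on the log2 scale. The narrowest intervals were those of *MTB*, with a change in level of -0.413% to 10.5% in *mettl4-1*, and of *VIR*, with -5.29% to 5.74%, and the widest was that of *FIONA1*, with -3.77% to 26.1%. The estimates of the 6 genes lay between -0.09 and 0.14, with 5 above 0 and a median of 0.04. *FIP37* and *VIR* were so near 0 that their sign turned when single libraries were left out. For comparison, the median over all genes tested was 0.00, and the 10th and 90th percentiles were -0.14 and 0.16.

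**Figure D3:**
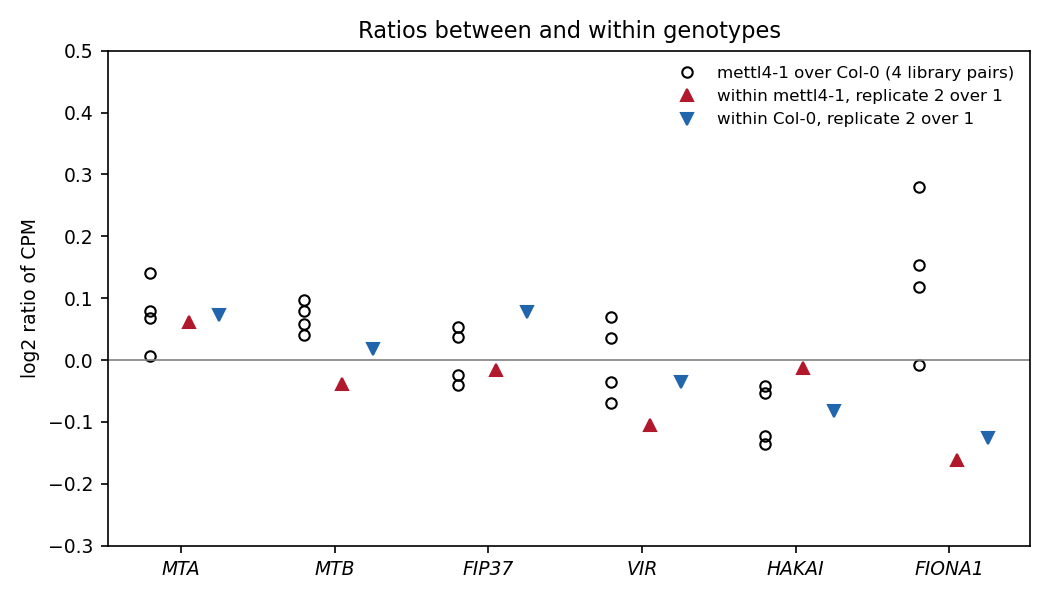
Log2 ratio of CPM (y axis) for the 6 other genes. Open circles are the 4 ratios of a *mettl4-1* library over a Col-0 library, and triangles are the ratio of replicate 2 over replicate 1 within *mettl4-1* (red) and within Col-0 (blue). The largest ratio between genotypes is 0.28, at *FIONA1*, whose replicates differ by 0.16 and 0.13.

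Compared per kilobase of exon, the levels fell into 2 tiers. In Col-0 the subunits of the mRNA complex averaged 15.9 CPM per kilobase for *FIP37*, 13.1 for *MTA*, 12.6 for *VIR*, 12.1 for *MTB* and 10.9 for *HAKAI*. Each was separated from the next over its 2 libraries. For *MTA* and *VIR* this was by a narrow margin, with the lower *MTA* library at 12.79 and the higher *VIR* library at 12.78. *METTL4* at 3.34 ± 0.09 and *FIONA1* at 3.32 ± 0.21 CPM per kilobase (SD, n = 2) followed, and their ranges overlapped. Thus the 2 snRNA methyltransferase genes stood at 0.255 and 0.253 times the *MTA* level. In *mettl4-1*, *FIP37* averaged 15.9, *MTA* 13.8, *MTB* 12.7, *VIR* 12.6, *HAKAI* 10.2 and *FIONA1* 3.66 CPM per kilobase, with *METTL4* alone at 0.419 ± 0.08 (SD, n = 2). *VIR* and *MTB* exchanged places there, with overlapping ranges.

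The balance among the 5 subunit genes of the mRNA complex was also close between genotypes. Of their summed level per kilobase, *FIP37* made up 24.4% in both *mettl4-1* libraries, against 24.0% and 25.1% in Col-0. *MTA* made up 20.5% and 21.8% in *mettl4-1*, against 19.9% and 20.7% in Col-0. *MTB* made up 19.5% and 19.3% in *mettl4-1*, against 18.7% in both Col-0 libraries. *VIR* made up 19.9% and 18.8% in *mettl4-1*, against 19.9% and 19.2% in Col-0, and *HAKAI* 15.7% in both *mettl4-1* libraries, against 17.5% and 16.3% in Col-0. These shares sum to a fixed total, so a lower share of one gene raises the others.

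**Figure D4:**
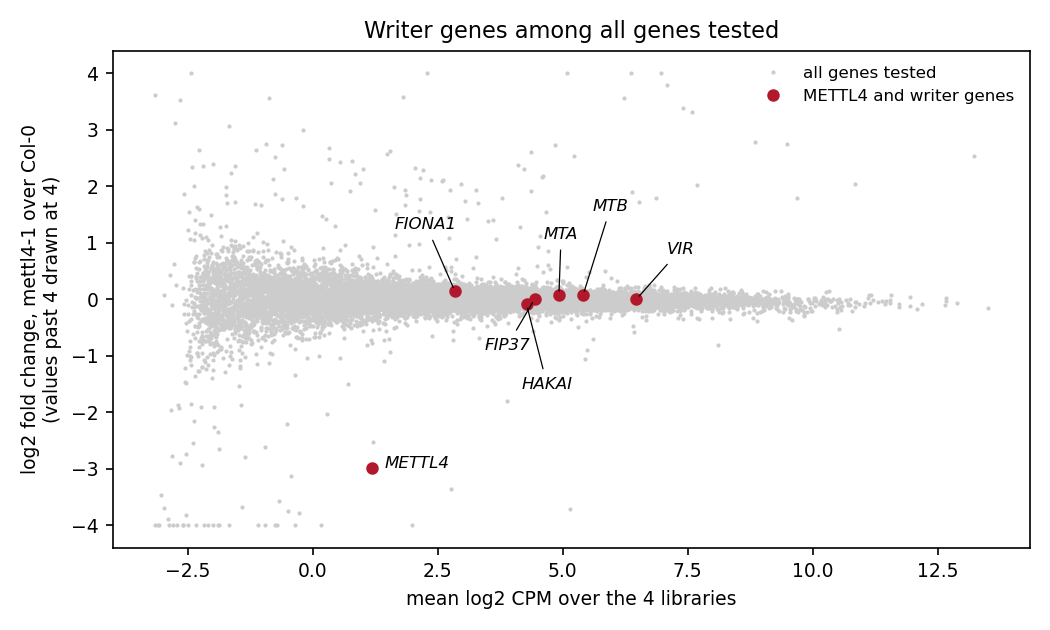
Log2 fold change of *mettl4-1* over Col-0 (y axis, values past 4 drawn at 4) against mean log2 CPM over the 4 libraries (x axis) for the 21673 genes tested (grey), with the 7 genes in red. *METTL4* lies at -2.99, and the other 6 lie within the band of most genes at their level.

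The genes nearest to *METTL4* in pattern were found by the distance between log2 CPM values over the 4 libraries after centring each gene, and are given as a description. They were AT2G28490, a cupin family gene with 8 and 16 counts in *mettl4-1* against 122 and 130 in Col-0 (distance 0.362), AT2G34700, with 1 and 2 counts against 36 and 34 (distance 0.365), and AT3G63040, with 0 and 1 counts against 12 and 24 (distance 0.543). None of the 3 is described as a methyltransferase, and all had lower counts than *METTL4* in every library.

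The question was extended to genes that act beside the writers. Of the zinc finger proteins that bind HAKAI, *HIZ1* had 26.8 and 26.5 CPM in *mettl4-1*, against 25.7 and 26.6 CPM in Col-0 (log2 fold change 0.03), and *HIZ2* had 91.7 and 82.3 CPM in *mettl4-1*, against 83.8 and 80.3 CPM in Col-0 (0.08). Neither passed the test. The ALKBH9 and ALKBH10 genes, which include the m6A demethylases, had 4 of 5 genes tested and 0 called in edgeR, with 0 at an unadjusted p under 0.05. *ALKBH9A* did not pass the filter on low counts. *ALKBH10B*, which removes m6A from transcripts of flowering genes, had 83.9 and 81.8 CPM in *mettl4-1*, against 83.0 and 83.0 CPM in Col-0.

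Among the 13 m6A readers, the YTH-domain proteins ECT1 to ECT12 and CPSF30, edgeR called 0 after adjustment and 2 had an unadjusted p under 0.05. The 11 genes of the methyl donor cycle, which make *S*-adenosylmethionine and clear its product, likewise had 0 called and 2 at an unadjusted p under 0.05. The 21 genes whose RefSeq description holds the word methyltransferase together with RNA or ribosomal, 1 of which (AT5G53920) is described as acting on a ribosomal protein, had 0 called and 2 at an unadjusted p under 0.05, with log2 fold changes between -0.09 and 0.18. DESeq2 without independent filtering and limma-voom called 0 genes in each of these 5 lists. When a *mettl4-1* library was left out, edgeR called some genes of the methyl donor, HIZ and reader lists, and the count over all genes tested also rose. Over all genes tested, 3301 (15.2%) had an unadjusted p under 0.05. The list medians lay between -0.02 and 0.06, against 0.00 over all genes.

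The remaining genes whose description contains the word methyltransferase, a broad group that acts on small molecules, DNA and proteins, had 240 of 269 genes tested. By its wording the group also takes in hydroxymethyltransferases and some enzymes that act on RNA but are not described so, such as FtsJ-like genes and AT4G28830. Of the genes tested, 9 (3.75%) passed an adjusted p of 0.05 in edgeR, 3 higher and 6 lower in *mettl4-1*, against 2.83% of all genes. DESeq2 without independent filtering called 3 genes in the list and limma-voom called 9, and their overlap with the edgeR calls was not counted. The edgeR count in the list fell when a Col-0 library was left out, more steeply than the count over all genes tested. Most of the calls in the list were lost in each of those fits. Both counts rose when a *mettl4-1* library was left out. The 4 genes of the list with the smallest p changed little in size. AT1G15125 fell to 26.0 and 26.1 CPM in *mettl4-1*, against 30.3 and 30.9 CPM in Col-0 (log2 fold change -0.23, edgeR adjusted p = 0.0146). AT5G37990 rose to 80.4 and 79.4 CPM in *mettl4-1*, against 72.3 and 72.1 CPM in Col-0 (0.15, edgeR adjusted p = 0.0183). AT4G00750 fell to 35.0 and 35.0 CPM in *mettl4-1*, against 40.7 and 39.0 CPM in Col-0 (-0.19, edgeR adjusted p = 0.0280). *IGMT4* (AT1G21130), an indole glucosinolate methyltransferase gene, fell to 101.5 and 105.1 CPM in *mettl4-1*, against 114.2 and 114.3 CPM in Col-0 (-0.15, edgeR adjusted p = 0.0289). All 4, chosen for their small p, had ranges that did not overlap, as did 45.8% of all genes tested, and changes well under 1.5-fold.

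In the same group 2 genes (0.833%) passed 1.5-fold with an unadjusted p under 0.05, against 1.62% of all genes tested, and they are named after their values were seen. *GAMT2* (AT5G56300), a gibberellin methyltransferase gene, had 0.376 and 0.389 CPM in *mettl4-1*, against 0.837 and 0.676 CPM in Col-0. AT4G24910, described as a glucuronoxylan methyltransferase-like protein, had 0.119 and 0.117 CPM in *mettl4-1*, against 0.273 and 0.270 CPM in Col-0. Both stood at low levels, and neither passed the test (edgeR adjusted p = 0.106 and 0.220). AT4G28830, the homologue of METTL5, which methylates 18S rRNA in animals, had 7.62 and 7.50 CPM in *mettl4-1*, against 6.47 and 7.25 CPM in Col-0 (log2 fold change 0.14, edgeR adjusted p = 0.50).

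**Figure D5:**
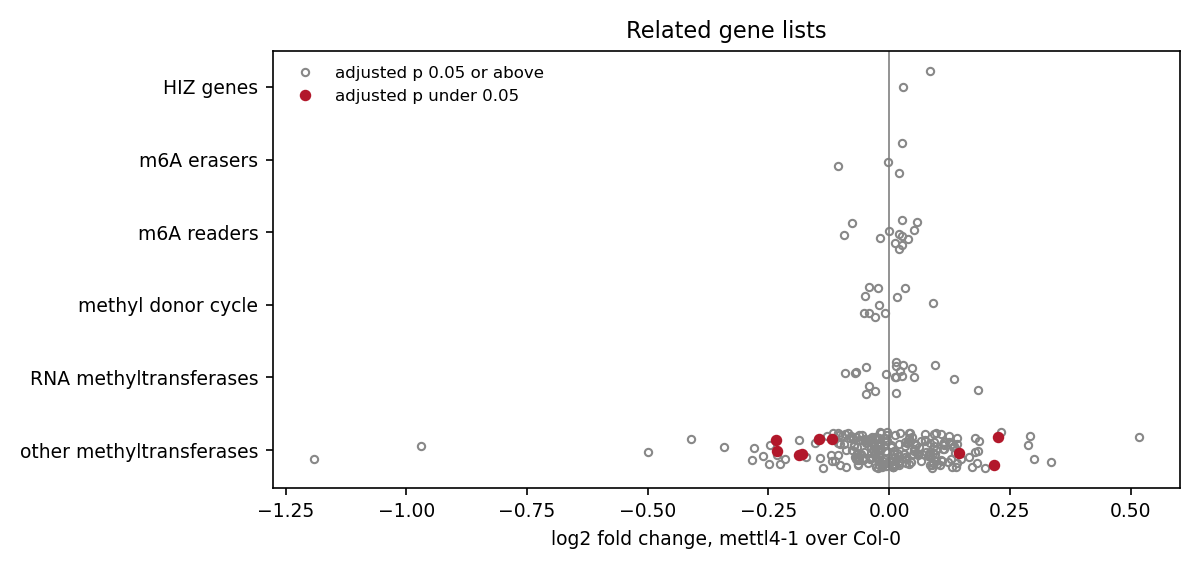
Log2 fold change of *mettl4-1* over Col-0 (x axis) for each tested gene of the related lists (y axis, with points spread for legibility). Filled red points have an edgeR adjusted p under 0.05. All 9 such genes are in the list of other methyltransferases, and the points of the other 5 lists lie between -0.11 and 0.18.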

How the data were processed

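Raw read counts per gene were deposited by the authors for each of 4 libraries. The authors' steps were Cutadapt 3.5 for trimming, HISAT2 2.2.1 on TAIR10 for mapping, SAMtools 1.13 for a mapping-quality filter, featureCounts 2.0.1 for counting and DESeq2 1.32.0 for testing. How the counting treated strand, overlapping genes and multi-mapping reads, and which annotation release it used, is not given in the sources used here. The deposited counts of *mettl4-1* replicate 2 go under the name *mettl4-2* replicate 1 and have the column name of *mettl4-1* replicate 1, but differ from that library. The sample labels were followed, and whether the allele is the same remains unknown. The labels give the dark period inconsistently, and the growth protocol's value was used.

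The counts were tested in R 4.3.3 with edgeR 4.0.16 (TMM, filterByExpr with a minimum of 10 counts, quasi-likelihood F test, genotype as the one term), with Benjamini-Hochberg adjustment over all 21673 genes tested. Fold changes are *mettl4-1* over Col-0. Intervals are 95%, from each standard error and its degrees of freedom. DESeq2 1.42.0, limma 3.58.1, other filters and normalizations, a replicate block and leaving out each library were alternatives. The fits were tested on simulated data whose planted changes were larger than those of the writer genes other than *METTL4*, so that test does not bear on such small changes. Names, exons and sequences are RefSeq TAIR10.1.

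Genes named by rule are the 7 genes, *HIZ1*, *HIZ2* and AT4G28830. So are up to 4 genes per list with the smallest p among those at an adjusted p under 0.05. The 3 genes nearest to *METTL4* in log2 CPM (prior count 2) complete the rule. Named outside it are the neighbours of *MTA* and *MTB*, *ALKBH9A*, *ALKBH10B*, AT5G53920, *ECT2*, *ECT5*, *GAMT2*, AT4G24910 and the further methyltransferase genes called in edgeR. The 7 genes and the lists were chosen with earlier results of these data known.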

Additional observations from a re-analysis of the deposited data

How the results depend on the processing

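*METTL4* kept its direction and its call under every alternative that gave an adjusted p, and its log2 fold change lay between -3.19 and -2.82 when 1 library was left out in turn. DESeq2 gave no adjusted p for 3 of the 7 genes, *METTL4* included, because of its independent filtering, so no count of calls was taken from it. DESeq2 without that filtering, chosen after seeing the data, gave -3.00 for *METTL4* (adjusted p = 1.2e-32). The number of the 7 genes called was 1 under all alternatives with a value. No other gene of the 7 was called. The direction of *VIR* and *FIP37*, whose fold changes are near 0, turned. *VIR* was at -0.0013 with no filter on low counts, at -7.9e-05 with the replicate block and between -0.0514 and 0.0534 with 1 library left out, and *FIP37* was between -0.0324 and 0.0451 with 1 library left out. The others kept their sign with 1 library left out, between 0.06 and 0.22 for *FIONA1*, 0.04 and 0.11 for *MTA*, 0.05 and 0.09 for *MTB*, and -0.13 and -0.05 for *HAKAI*. With the replicate block *METTL4* was at -2.99 and 684 genes were called, against 614 without it. The replicate numbers share no stated origin, and the deviations of same-numbered libraries correlated at -0.03 over genes. The count of all genes called at an adjusted p under 0.05 depended on the libraries, the filter and the test. It was 1806 without *mettl4-1* replicate 2, 1055 without *mettl4-1* replicate 1, 377 without Col-0 replicate 2, 342 without Col-0 replicate 1, 930 with no filter on low counts, 865 without organelle genes, and 358 in DESeq2 without independent filtering. The cause was not tested. In the list of other methyltransferases, 14 of 256 genes were called with no filter on low counts, against 9 of 240 with it. Over all genes the counts were 930 of 26301 with no filter, against 614 of 21673 with it. A lone library left in a genotype is assumed to vary like the others. The count at 1.5-fold and an unadjusted p under 0.05 was 223 in DESeq2, against 351 in edgeR. At 2 libraries per genotype, the 95% intervals given still hold small changes of the 6 other genes. The smallest change that could be detected was not computed.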

Other observations

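The other 5 methyltransferase genes that passed an adjusted p of 0.05 in edgeR, named here after their values were seen, also changed by small amounts. Their edgeR adjusted p lay near the threshold, between 0.0341 and 0.0458. *PRMT4B* (AT3G06930), which encodes a protein arginine methyltransferase, fell to 32.5 and 31.5 CPM in *mettl4-1*, against 36.3 and 36.2 CPM in Col-0 (log2 fold change -0.18). *APG1* (AT3G63410), whose product methylates a plastoquinone precursor in the chloroplast envelope, fell to 432.0 and 422.0 CPM in *mettl4-1*, against 463.2 and 463.3 CPM in Col-0 (-0.12). AT4G24805 fell to 12.1 and 12.1 CPM in *mettl4-1*, against 14.4 and 14.2 CPM in Col-0 (-0.23). AT1G08125 rose to 20.6 and 20.6 CPM in *mettl4-1*, against 17.3 and 17.9 CPM in Col-0 (0.23), and AT5G42760 rose to 25.4 and 27.2 CPM in *mettl4-1*, against 22.6 and 22.7 CPM in Col-0 (0.22).

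The 2 m6A readers with an unadjusted p under 0.05 were *ECT2* and *ECT5*. *ECT2* had 404.8 and 405.5 CPM in *mettl4-1*, against 448.7 and 415.7 CPM in Col-0 (log2 fold change -0.09, edgeR adjusted p = 0.234). *ECT5* had 59.2 and 57.2 CPM in *mettl4-1*, against 62.5 and 60.3 CPM in Col-0 (-0.08, edgeR adjusted p = 0.287). Neither passed the adjusted test.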
